A study of Mus musculus with 18 samples.

Results

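Aminoacyl-tRNA synthetases of the cytosol were followed through RNA-seq of mouse mesenchymal stem cells (MSC), adherent progenitors of the bone marrow stroma, whose actin had been perturbed. The 10 genes were taken by symbol, Aars, Cars, Eprs, Gars, Iars, Lars, Nars, Sars, Wars and Yars, and each matched 1 of the 54347 rows of the deposited table. A further 11 genes of cytosolic synthetases or their subunits were measured and are given only for comparison. The 10 are therefore a chosen subset, and their difference from the other 11 is a description. Newer annotation adds a 1 to each symbol, as in Aars1.

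The MSC came from the marrow of male C57BL/6J mice, and by the study's methods the libraries of a group were separate preparations. The labels do not tie a preparation to an animal. By the study's report, a primary line made from these mice served for its MSC work. The p-values thus measure the spread between preparations and not between animals. Each of 6 groups held 3 libraries. In the first experiment, untransfected cells received no agent (control), CK666, a small molecule that inhibits the Arp2/3 complex, or CytoD, which is cytochalasin D, a fungal product that blocks the growth of actin filaments. In the second, all cells were transfected with siRNA. It was a mock siRNA (siControl), an siRNA against Arp4 (siArp4), or the Arp4 siRNA with CK666 added (siArp4+CK666). Arp4 is a nuclear actin-related protein encoded by Actl6a. None of the 6 groups had the mock siRNA with CK666, so the effect of CK666 in transfected cells is known only under the Arp4 siRNA. The study measured RNA after a day of treatment in the first experiment. CK666 is used for its action on branched actin, and its action on other targets in these cells was not measured.

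A synthetase joins one amino acid to its own transfer RNA, and the ribosome then reads the charged tRNA, so each enzyme serves a different amino acid. In animal cells several of these enzymes sit in a multisynthetase complex, which Eprs, Iars and Lars join, while others work as free enzymes. When amino acids run short or unfolded protein builds up in the endoplasmic reticulum, kinases phosphorylate the initiation factor eIF2 alpha, bulk translation falls and the transcription factor ATF4 is made. ATF4 binds C/EBP-ATF response elements with C/EBP partners and is known to drive genes of amino acid uptake, amino acid synthesis and tRNA charging.

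The complex members Eprs (ENSMUSG00000026615.14, chr1:185363044-185428360, plus strand), Iars (ENSMUSG00000037851.13, chr13:49682100-49734267, plus strand) and Lars (ENSMUSG00000024493.9, minus strand) charge the tRNAs for glutamate and proline, isoleucine, and leucine. Among the free enzymes, Cars (ENSMUSG00000010755.17, chr7:143557230-143600090, minus strand) serves cysteine. Wars (ENSMUSG00000021266.16, chr12:108860030-108894174, minus strand), a gene known to respond to interferon, serves tryptophan. Yars (ENSMUSG00000028811.12, chr4:129189760-129219607, plus strand) serves tyrosine. Aars (ENSMUSG00000031960.14, chr8:111033144-111057664, plus strand) serves alanine. Gars (ENSMUSG00000029777.10, chr6:55038007-55079500, plus strand) serves glycine and also encodes the mitochondrial form of its enzyme. Nars (ENSMUSG00000024587.10, minus strand) serves asparagine. Sars (ENSMUSG00000068739.13, chr3:108424865-108445209, minus strand) serves serine. Coordinates are whole genes on GRCm38. Libraries were unstranded, so the counts of Yars could mix with those of C77080, whose exons overlap it on the opposite strand and which had a mean count of 223. Aars shares exon sequence on its own strand with Exosc6, with a mean count of 42.8. Wars lies over Wdr25 on the opposite strand with no shared exon, with a mean count of 113 for Wdr25.

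Because the members moved together in their counts, their promoters were searched for the letters TGATGNAA, the core of the C/EBP-ATF response element, on both strands and with no other motif. The window ran from 250 bases before the RefSeq transcript start (GRCm38.p6) to 50 bases from it. Promoter entries matched 6 of the 10 members, and 4 of those 6 held the letters. Of all 32851 RefSeq promoters of the same length, 3.97% held them. The stretch from 120 bases before the start to base 20 is shown for the 6 genes, with the match in capitals, to let the 4 with a match be read beside Eprs and Sars, which had none. The places are chr4:129189783-129189922, plus strand for Yars, chr6:55037881-55038020, plus strand for Gars, chr8:111033722-111033861, plus strand for Aars, chr13:49682010-49682149, plus strand for Iars, chr1:185362924-185363063, plus strand for Eprs and chr3:108445240-108445379, minus strand for Sars. Each is written 5′ to 3′ on the strand of its gene.
Yars: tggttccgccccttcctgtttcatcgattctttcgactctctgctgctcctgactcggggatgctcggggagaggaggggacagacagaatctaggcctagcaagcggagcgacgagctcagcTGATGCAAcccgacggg
Gars: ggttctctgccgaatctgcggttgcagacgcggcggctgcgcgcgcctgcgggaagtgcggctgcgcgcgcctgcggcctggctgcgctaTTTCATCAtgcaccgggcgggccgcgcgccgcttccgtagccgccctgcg
Aars: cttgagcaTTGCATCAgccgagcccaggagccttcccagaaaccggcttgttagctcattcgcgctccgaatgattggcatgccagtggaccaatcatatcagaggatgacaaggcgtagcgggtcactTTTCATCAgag
Iars: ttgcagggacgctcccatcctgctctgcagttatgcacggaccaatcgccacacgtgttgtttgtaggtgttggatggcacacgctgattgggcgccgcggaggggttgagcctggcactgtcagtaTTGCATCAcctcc
Eprs: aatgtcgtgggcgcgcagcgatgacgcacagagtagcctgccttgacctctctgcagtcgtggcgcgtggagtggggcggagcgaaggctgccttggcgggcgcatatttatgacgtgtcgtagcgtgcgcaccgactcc
Sars: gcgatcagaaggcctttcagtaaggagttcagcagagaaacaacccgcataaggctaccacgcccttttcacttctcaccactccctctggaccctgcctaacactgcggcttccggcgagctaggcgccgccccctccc
Yars carried the letters on the gene strand, at bases 4 to 11 of its transcript. Gars, Aars and Iars carried them on the opposite strand. The match began 30 bases before the start in Gars and at base 8 of the transcript in Iars. Aars had 2 matches, which began 112 bases before the start and at base 10. Of the other cytosolic synthetases 8 had a promoter entry and 1 held the letters, Tars, whose match began 15 bases before the start. Among 14 mitochondrial synthetases with an entry 0 held them, and 6 of 10 genes of an ATF4 list did. A match is a run of letters and was not tested for binding.

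**Figure D1:**
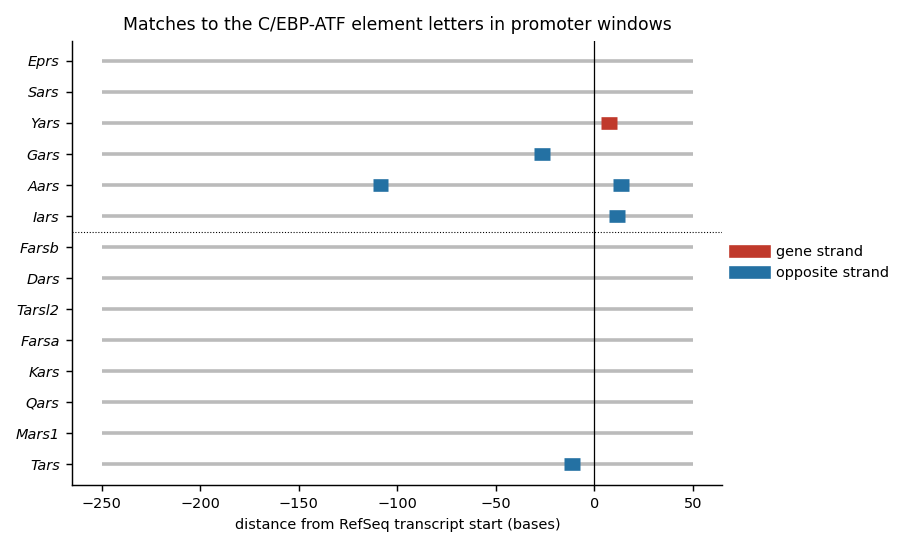
Places of the TGATGNAA letters in 300-base promoter windows, with the distance in bases from the RefSeq transcript start on the horizontal axis and 1 gene a line. Red blocks lie on the gene strand and blue blocks on the opposite strand, and the 6 members above the dotted line hold 5 blocks in 4 genes, while the 8 other cytosolic synthetases below it hold 1 block in 1 gene.

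Values are expected counts per gene. Totals ran from 18075610 to 24733212 per library. Actl6a, the gene the siRNA targets, averaged 896 ± 209 normalized counts with the mock siRNA. The Arp4 siRNA left 41.7 ± 20.1, and with CK666 added 16.8 ± 6.76 (SD, n = 3). Of 8 marrow stromal markers 5, led by Col1a2 and Col1a1, had 10 or more counts in every library, but Thy1 was at 0 throughout and Nt5e never passed 8.26. The T cell marker Cd3e was at 0 and Ptprc, a pan-leukocyte gene, at no more than 1.02. Among macrophage-linked genes, Cd68, Csf1r and Cd14 had 13.0 to 144 counts across libraries. Adgre1 and Itgam, also macrophage-linked, reached no more than 11.9 and 0.973 and were at 0 in their lowest library. Csf1r overlaps Hmgxb3 on the opposite strand. Summed over 6 endothelial markers the level was 0.207 to 1.25 CPM (counts scaled to a library total). The siControl libraries stood apart from each other. Between raw counts of replicates, chi-square divided by its degrees of freedom was 425 for siControl 1 and 2, 120 for 1 and 3 and 148 for 2 and 3, against 6.79 to 108 within the other groups. The share of mitochondrial counts was 1.30% in siControl 2 and 2.65% and 2.37% in siControl 1 and 3.

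As a share of all counts the 10 genes took 0.238% ± 0.00122 of a control library, 0.427% ± 0.00220 of a CK666 library and 0.132% ± 0.00334 of a CytoD library (SD, n = 3). In the second experiment they took 0.113% ± 0.0217 in siControl, 0.153% ± 0.00805 in siArp4 and 0.223% ± 0.0231 in siArp4+CK666. Within each experiment these ranges did not overlap between groups. Levels between genes were compared as control normalized counts per kb of the longest principal transcript, with size factors over all 18 libraries. The levels ran from 3635 ± 148 for Gars and 2997 ± 40.5 for Nars to 511 ± 53.7 for Yars. Between lay Wars (1497 ± 36.6), Aars (1419 ± 53.5), Eprs (1331 ± 52.7), Sars (1105 ± 28.8), Lars (877 ± 24.0), Iars (613 ± 30.5) and Cars (587 ± 52.9). In this order Wars and Aars, Aars and Eprs, Iars and Cars, and Cars and Yars overlapped between control libraries, and the other neighbours did not. The order rests on the transcript length taken for each gene. In CK666 cells Sars, at 2578 ± 419 per kb, took rank 4 in place of 6, with libraries that overlapped those of Eprs in the next rank.

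**Figure D2:**
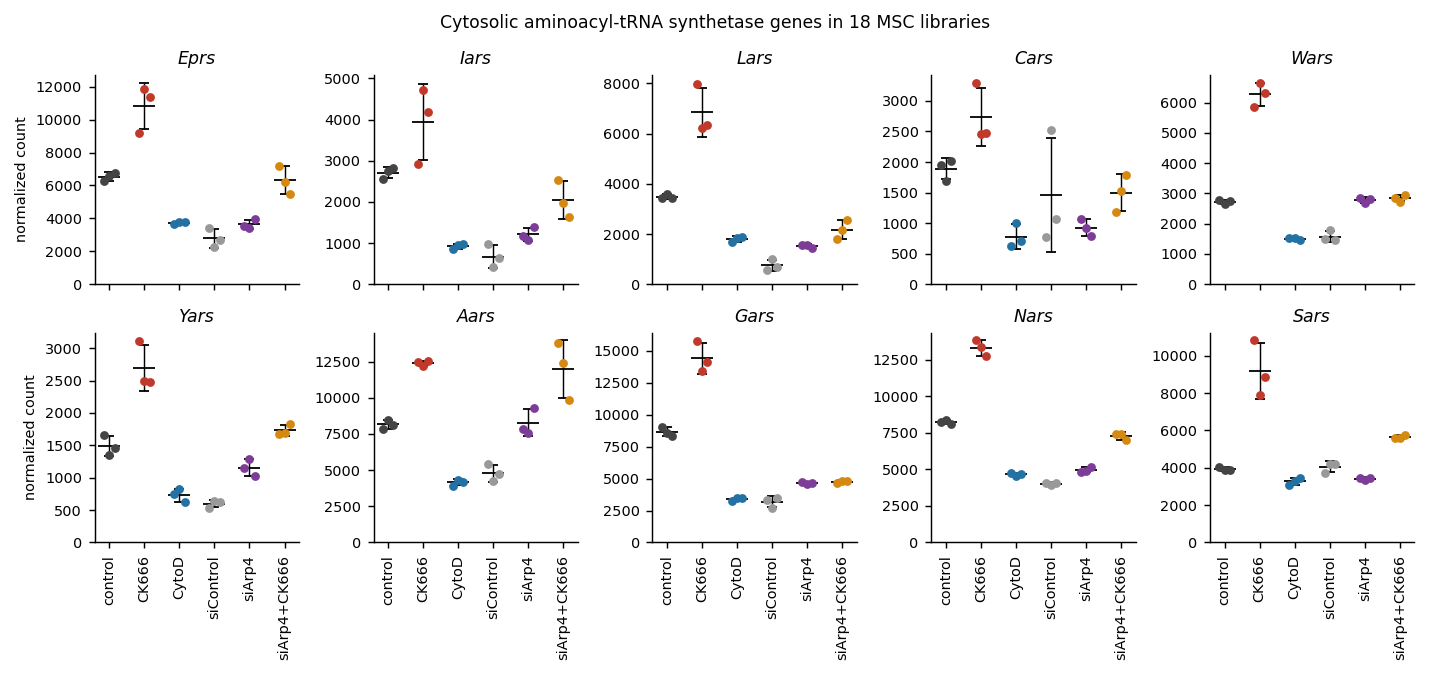
Normalized counts of the 10 synthetase genes (vertical axis, from 0, scaled with 1 set of size factors over all 18 libraries), with 1 point per library and the mean ± SD of each group of 3 as bars. The CK666 mean is the highest of the 6 groups in 10 of 10 genes, and the lowest mean is siControl in 6 genes and CytoD in 4.

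CK666 raised the synthetase genes in untransfected MSC. All 10 had 3 CK666 libraries above the 3 control libraries, which held for 24.1% of all genes tested. A gene was called where its fold change was over 2 and its adjusted p below 0.01. Sizes are log2 differences between groups. By that rule 2 members, Sars and Wars, were called higher and 0 lower, against 4.89% and 6.06% of tested genes. Without the fold minimum 9 of 10 were higher at an adjusted p below 0.01, against 15.3% of tested genes, all but Cars. With edgeR's quasi-likelihood test the count was 8, without Iars. The median log2 fold change of the 10 was 0.75, beside 0.01 over all genes tested.

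Sars and Wars more than doubled. Sars had 4190, 3992 and 3981 normalized counts in control and 11286, 8196 and 9168 in CK666. That is a log2 difference of 1.24 with SE 0.13 (adjusted p 5.91e-21), and 1.10 to 1.34 with each of the 9 libraries left out in turn. Wars had 2865, 2723 and 2828 in control and 6099, 6871 and 6555 in CK666. Its log2 fold change was 1.21 (SE 0.08, adjusted p 4.57e-48). For both genes the lowest CK666 library stood well above the highest control.

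The complex members differed in how evenly their CK666 libraries sat. Lars had 3556, 3694 and 3512 in control and 8310, 6447 and 6577 in CK666, a log2 difference of 0.99 with SE 0.12 (adjusted p 3.84e-15), just under the fold minimum. Eprs had 6447, 6735 and 6940 against 9591, 12289 and 11789, a log2 difference of 0.74 with SE 0.11 (adjusted p 1.50e-10). Iars had 2642, 2830 and 2894 against 3037, 4888 and 4344. CK666 replicate 1 was the lowest of its group for Iars and Eprs and the highest for Lars. The Iars log2 fold change was 0.55 (SE 0.16, adjusted p 0.00302, and 0.0139 by edgeR).

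Gars, for glycine, had 9320, 8783 and 8566 in control and 16402, 13873 and 14602 in CK666. Nars, for asparagine, had 8461, 8562 and 8336 against 14374, 13812 and 13212. Their log2 fold changes were 0.75 (SE 0.09, adjusted p 2.35e-14) and 0.71 (SE 0.07, adjusted p 1.15e-22). These were the most abundant members per kb, and both rose with no overlap between groups. Aars rose from 8097 to 8687 in control to 12602 to 12975 in CK666, a log2 difference of 0.62 with SE 0.08 (adjusted p 8.36e-15). Yars rose from 1381 to 1706 to 2574 to 3237, a log2 difference of 0.87 with SE 0.15 (adjusted p 5.53e-08). Cars had 1740 to 2069 in control and 2552 to 3428 in CK666. Its log2 fold change was 0.55 (SE 0.19) and its adjusted p 0.0113, so Cars did not pass although its groups did not overlap.

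CytoD lowered the synthetase genes. All 10 had 3 CytoD libraries below the 3 control libraries, which was true of 30.0% of tested genes. Of the 10, 4 were called lower, Iars, Gars, Cars and Yars, and 0 higher, against 4.32% and 4.80% of tested genes. Without the fold minimum 9 were lower, against 16.0%, and Sars was not. The median log2 fold change was -0.97, beside 0.01 over all tested genes. The comparison shares its control libraries with that of CK666, so the values of both are set side by side and are not independent of each other.

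The isoleucine enzyme gene Iars had 879, 968 and 994 normalized counts in CytoD against 2642 to 2894 in control, a log2 difference of -1.56 with SE 0.17 (adjusted p 2.40e-19). Gars had 3321, 3524 and 3569 against 8566 to 9320, a log2 difference of -1.36 with SE 0.09 (adjusted p 2.90e-44). Both fell to well under the lowest control library. Cars had 642, 1028 and 728 in CytoD, a log2 difference of -1.28 with SE 0.19 (adjusted p 2.43e-10). Yars had 761, 847 and 642, a log2 difference of -1.03 with SE 0.15 (adjusted p 1.90e-10). The call of Yars was lost without control replicate 1 (log2 fold change -0.94) or CytoD replicate 3 (-0.93), since both values lie under the fold minimum, while Aars passed it without control replicate 1 or CytoD replicate 2.

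Aars, Lars, Wars, Nars and Eprs passed the adjusted p with log2 fold changes of -0.98 (SE 0.08), -0.96 (SE 0.12), -0.87 (SE 0.08), -0.82 (SE 0.07) and -0.81 (SE 0.11). Their adjusted p-values ran from 2.32e-35 for Aars to 2.99e-12 for Eprs. Sars, which more than doubled under CK666, had 3158, 3383 and 3513 in CytoD against 3981 to 4190 in control. Its log2 fold change was -0.27 (SE 0.13, 95% CI -0.52 to -0.03) with an adjusted p of 0.0739.

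**Figure D3:**
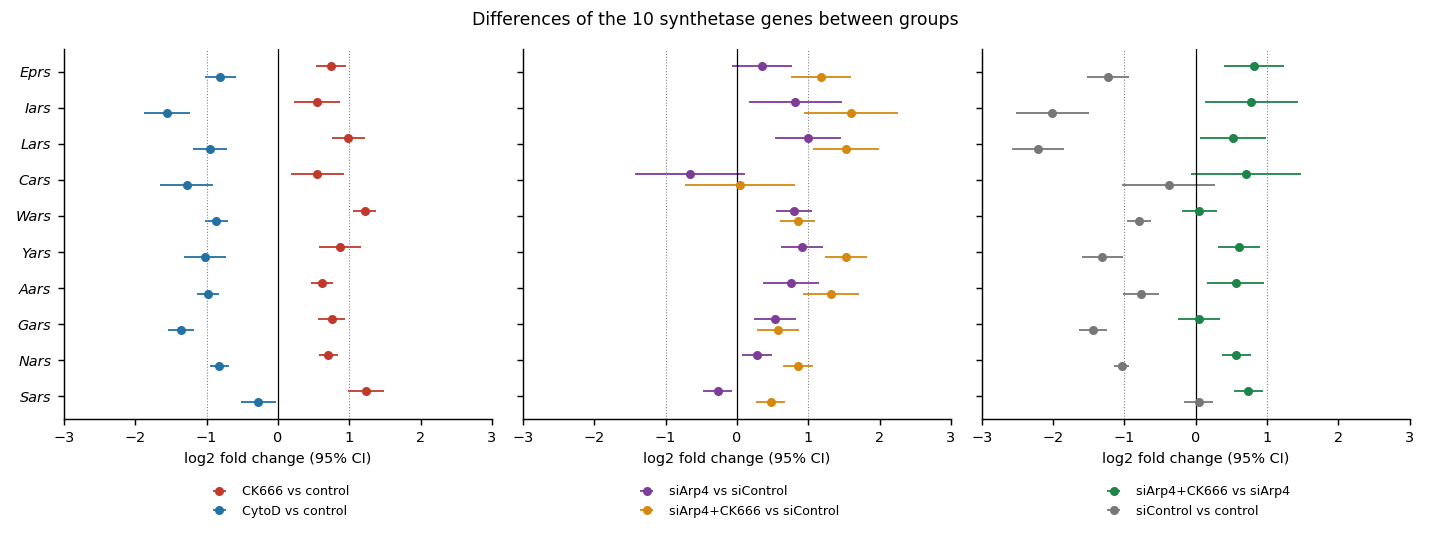
Log2 fold changes of the 10 genes (points) with 95% confidence intervals (lines), in 3 panels that each hold 2 comparisons, and dotted lines at the fold minimum. CK666 against control lies right of 0 and CytoD against control left of 0 for 10 of 10 genes, the Cars intervals are wide in the second experiment, and Gars and Wars lie at about 0 for siArp4+CK666 against siArp4.

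Between the 2 drugs directly, all 10 members were called higher in CK666 than in CytoD, against 5.08% of tested genes. The log2 differences ran from 1.51 (SE 0.13) for Sars to 2.11 (SE 0.17) for Iars and 2.11 (SE 0.09) for Gars, with a median of 1.87. The largest adjusted p was 1.61e-20, for Cars. Iars, at 879 to 994 in CytoD and 3037 to 4888 in CK666, and Wars, at 1514 to 1558 and 6099 to 6871, had folds of 4.32 and 4.23.

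Of the other 11 cytosolic synthetase genes few moved with CK666 and most with CytoD. Under CK666 0 of 11 were called and 2 were higher at an adjusted p below 0.01, with a median log2 fold change of 0.03. Under CytoD 2 were called lower, Vars for valine (-1.42, SE 0.10) and Mars for methionine (-1.22, SE 0.16), and 10 of 11 were lower at the adjusted p alone, with a median of -0.67. Mars overlaps exons of Ddit3 on the opposite strand, so its counts are uncertain. Summed, the 11 genes had 1503 ± 42.6 CPM in control, 1682 ± 109 in CK666 and 934 ± 3.70 in CytoD.

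Of 3 scaffold genes of the multisynthetase complex, 2 were called lower under CytoD, Eef1e1 (-1.28) and Aimp2 (-1.11, whose exons overlap Eif2ak1 on the opposite strand), and 0 of 3 were called under CK666. Without the fold minimum 2 of the 3 were higher and 1 lower under CK666. Of 17 mitochondrial synthetase genes, 0 were called under CK666 and 1 under CytoD, Mars2 (-1.22), or 2 without control 2. Without the fold minimum 4 of the 17 were higher under CK666, against 15.3% of tested genes, and 2 lower under CytoD, against 16.0%. Their summed levels were 649 ± 32.4 CPM in control, 775 ± 80.4 in CK666 and 718 ± 40.4 in CytoD. All 10 genes of a list of ATF4, its partners and targets were called higher under CK666, with a median log2 fold change of 1.77. They were led by Trib3 (4.66), a pseudokinase, Ddit3 (4.32), which encodes CHOP, and Atf3 (4.25). Under CytoD 4 of the 10 were called lower, among them Chac1 (-2.15), which degrades glutathione, Trib3 (-2.05) and Asns (-1.47), the asparagine synthetase. Of 5 genes of the elongation factors eEF1 and eEF2, 0 were called under either drug, though without the fold minimum 2 were higher under CK666 and 2 lower under CytoD. Of 6 genes of eIF2 alpha kinases and phosphatase subunits, 1 was called under CK666, Ppp1r15a (3.76), a phosphatase subunit.

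**Figure D4:**
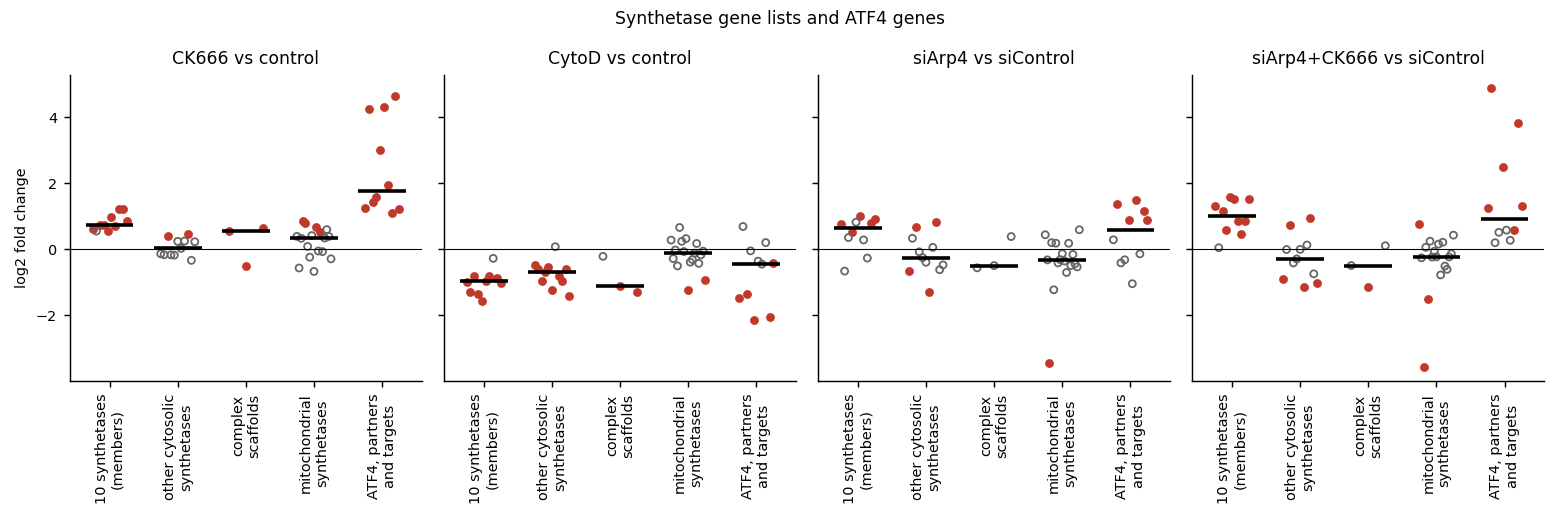
Log2 fold changes (vertical axis) of single genes in 5 lists and 4 comparisons, with filled red points at an adjusted p below 0.01, open points above it, and a black bar at each list median. Under CK666 the median is 0.75 for the 10 members, 0.03 for the other cytosolic synthetases and 1.77 for the ATF4 list.

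The summed level of the 8 stromal markers moved with CK666 too, from 8288 ± 310 CPM in control to 4424 ± 504, and was 8834 ± 311 in CytoD. Most of this sum came from Col1a2 and Col1a1, with means of 89304 and 46858 normalized counts over 18 libraries, against 5749 for Pdgfrb, the next. In the second experiment the sum was 5805 ± 2290 in siControl, with single libraries from 3431 to 8001, 10616 ± 817 in siArp4 and 5530 ± 660 in siArp4+CK666. Single markers were mixed for siArp4 against siControl. Of 6 tested, 4 were higher and 2 lower, with log2 fold changes from -1.47 to 1.70, and 1 was called higher. For CK666 against control all 6 tested were lower and 1 was called. The 8 haematopoietic markers summed to at most 16.4 CPM in any library. In bulk RNA, fewer cells of a type and less RNA per cell cannot be told apart. The part of cell state or cell mixture in the synthetase levels was not tested.

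The Arp4 siRNA alone moved some of the members. Of the 10, 0 were called in either direction, against 6.69% of tested genes higher and 9.49% lower. Without the fold minimum 5 were higher, Lars, Yars, Wars, Aars and Gars, against 11.9% of tested genes. The median of the 10 was 0.65, beside -0.05 over all genes. That count was 6 without siControl 1, 5 without siControl 2 and 4 without siControl 3, and it ran from 3 to 6 over all libraries left out in turn. By edgeR 3 of the 5 passed, and Aars (adjusted p 0.0126) and Gars (0.0198) did not. The count called was 1 without siControl 1 or siControl 2 and 2 without siArp4 3.

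Wars, whose siControl libraries had 1495, 1730 and 1449 normalized counts, had 2769, 2608 and 2763 in siArp4. The groups were separate, with a log2 difference of 0.80 with SE 0.13 (adjusted p 3.32e-09). Yars went from 540, 630 and 617 to 1122, 1252 and 999, a log2 difference of 0.92 with SE 0.15 (adjusted p 1.80e-08). Lars went from 573, 978 and 687 to 1537, 1539 and 1390. Its log2 fold change of 0.998 (SE 0.24, adjusted p 0.000184) lay just under the fold minimum, and several alternatives put it just over. Aars went from 4100 to 5414 to 7413 to 9097, a log2 difference of 0.76 with SE 0.20 (adjusted p 0.000961). Gars went from 2616 to 3510 to 4500 to 4625, a log2 difference of 0.53 with SE 0.15 (adjusted p 0.00191).

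The other 5 members did not pass. Iars had 979, 397 and 630 in siControl and 1135, 1056 and 1359 in siArp4, and Cars had 781, 2451 and 1061 against 1041, 898 and 773. SiControl 2 was thus the lowest library of its group for Iars and the highest for Cars. The log2 fold changes were 0.82 (SE 0.33, adjusted p 0.0421) for Iars and -0.66 (SE 0.39, adjusted p 0.192) for Cars. Eprs had 2209 to 3418 against 3330 to 3869, which overlapped, and the log2 difference was 0.36 (adjusted p 0.195). Nars and Sars each had separate groups but small differences, of 0.28 (SE 0.11, adjusted p 0.0256) and -0.27 (SE 0.10, adjusted p 0.0319). Beside them, 1 of the other 11 cytosolic synthetases was called lower, Qars (-1.30), for glutamine, and 0 higher. Of 3 scaffold genes 0 were called. In the ATF4 list 3 of 10 were called higher, Nupr1 (1.50), Atf3 (1.37) and Trib3 (1.15), of which Trib3 lost its call without siControl 1 (0.86), siControl 3, siArp4 1 or siArp4 2. Of 5 elongation factor genes 3 were called lower, Eef1b2 (-1.51, whose exons overlap Ndufs1 on the opposite strand), Eef1g (-1.46) and Eef1d (-1.45). These counts rest in part on siControl 2. Without it Eef1g alone stayed called, and Eef1b2 stood at -0.71 (adjusted p 0.0777) and Eef1d at -0.84 (0.0189). The count was also 1 without any one siArp4 library.

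With CK666 added to the Arp4 siRNA, 9 members had every library above every siControl library, as did 21.4% of tested genes. Called higher were 5, Iars, Lars, Yars, Aars and Eprs, and 0 lower, against 8.06% and 12.4% of tested genes. The count stayed at 5 with each library left out in turn. Without the fold minimum 9 were higher, against 14.0% of tested genes, all but Cars, and again 9 without each siControl library in turn. By edgeR 7 passed, and Gars (adjusted p 0.0118) and Sars (0.0108) did not. The median log2 fold change was 1.01, beside -0.05 over all genes.

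Iars had 2549, 1956 and 1589 normalized counts in siArp4+CK666 against 397 to 979 in siControl, a log2 difference of 1.60 with SE 0.33 (adjusted p 1.13e-05). Lars had 1813, 2134 and 2493 against 573 to 978, a log2 difference of 1.53 with SE 0.24 (adjusted p 1.56e-09). Both genes of the complex had every siArp4+CK666 library above every siControl library. Yars had 1677, 1674 and 1783 against 540 to 630, a log2 difference of 1.52 with SE 0.15 (adjusted p 1.37e-22). Aars had 13835, 12214 and 9566 against 4100 to 5414, a log2 difference of 1.32 with SE 0.20 (adjusted p 8.95e-10). Eprs had 7241, 6153 and 5340 against 2209 to 3418, a log2 difference of 1.17 with SE 0.21 (adjusted p 3.61e-07). In these 3 genes too the groups were apart.

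Nars (0.85, SE 0.11), Wars (0.85, SE 0.13), Gars (0.58, SE 0.15) and Sars (0.47, SE 0.10) passed the adjusted p by DESeq2, which was 0.000556 at most, for Gars. Cars, at 1191, 1507 and 1736 in siArp4+CK666, lay within the siControl range, with a log2 fold change of 0.05 (SE 0.39, 95% CI -0.73 to 0.82, adjusted p 0.943). The other cytosolic synthetases split, with 2 of 11 called lower, Qars (-1.14) and Vars (-1.01), and 0 called higher. Without siControl 2 both lay under the fold minimum, at -0.94 and -0.75, and Vars also did without siArp4+CK666 2 or 3. In the ATF4 list 5 of 10 were called higher, led by Atf3 (4.88), Trib3 (3.82) and Chac1 (2.51).

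Against siArp4 alone, which isolates CK666 under the knockdown, 0 members were called, against 1.63% of tested genes higher and 4.12% lower. The groups of 9 members were separate and higher, as in 17.8% of tested genes. Without the fold minimum 4 were higher, Eprs, Sars, Yars and Nars, against 3.82% of tested genes. That count ran from 2 to 6 with each library left out in turn. By edgeR 1 passed, Sars (adjusted p 0.00412), while Nars (0.0146), Yars (0.0210) and Eprs (0.0280) did not. The median was 0.59, beside 0.02 over all genes. Sars went from 3383, 3281 and 3358 to 5603, 5498 and 5615, a log2 difference of 0.74 with SE 0.10 (adjusted p 5.32e-11). Nars went from 4721, 4763 and 5052 to 7465, 7309 and 6803, a log2 difference of 0.57 with SE 0.11 (adjusted p 2.23e-06). The libraries within each of these groups lay close together. Eprs, at 3426, 3330 and 3869 in siArp4, rose by 0.82 (SE 0.21, adjusted p 0.00176), and Yars by 0.61 (SE 0.15, adjusted p 0.000670). The values for Iars, Cars, Aars and Lars were 0.78 (adjusted p 0.105), 0.71 (0.269), 0.56 (0.0413) and 0.53 (0.128). Gars and Wars stood at 0.05 each, with 95% intervals of -0.25 to 0.34 and -0.19 to 0.30.

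Wars and Gars responded to CK666 in untransfected cells and not detectably under the Arp4 siRNA, and that difference was itself tested. The interaction is the log2 effect of CK666 in siArp4 cells minus its log2 effect in untransfected cells, fitted over 18 libraries. It was -1.17 (SE 0.12, adjusted p 4.92e-20) for Wars, which was called, as were 2.52% of tested genes in that direction and 1.90% in the other. It was -0.71 (SE 0.14, adjusted p 1.50e-05) for Gars, which passed the adjusted p alone, as did 4.06% of tested genes in that direction. With each of the 18 libraries left out in turn, Wars stayed between -1.21 and -1.13 and Gars between -0.76 and -0.64.

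In counts, Wars more than doubled from control to CK666, but had 2769, 2608 and 2763 under the Arp4 siRNA alone and 2866, 2696 and 2873 once CK666 was added. Those groups overlapped. Gars had 4625, 4500 and 4571 under the siRNA alone and 4658, 4780 and 4693 once CK666 was added, higher in every library by a small margin. Sars had an interaction of -0.50 (SE 0.15, adjusted p 0.0108), which did not pass but did with TMM size factors or the low count filter, and Lars one of -0.46 (SE 0.26, adjusted p 0.271). The other 6 lay between -0.27 and 0.22, with 95% intervals that all held 0. The knockdown, the transfection and the experiment cannot be told apart in this contrast. In the ATF4 list 4 of 10 were called lower in the interaction, among them Nupr1 (-3.17), Ddit3 (-2.70) and Trib3 (-1.99).

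**Figure D5:**
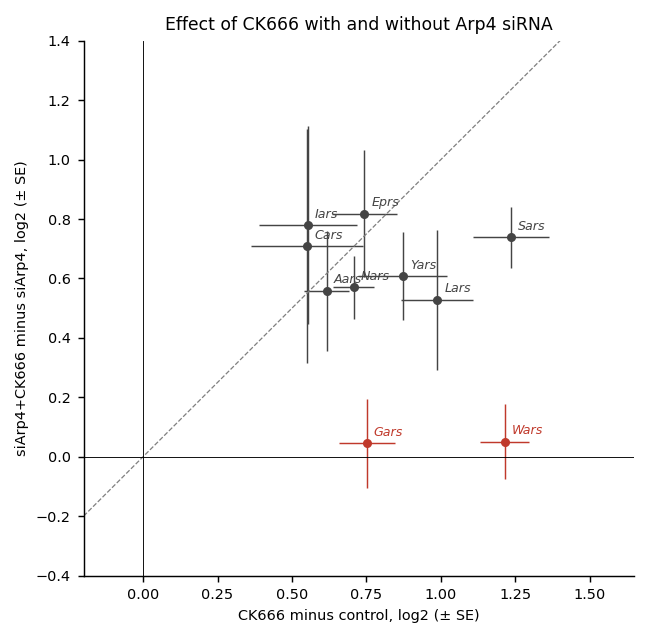
Log2 effect of CK666 on each of the 10 genes in untransfected cells (horizontal axis) and in cells with the Arp4 siRNA (vertical axis), with lines of 1 SE on both and a dashed line where the effects are equal. Gars and Wars (red) lie at 0.05 on the vertical axis and at 0.75 and 1.21 on the horizontal one, while the other 8 lie between 0.53 and 0.82 on the vertical axis.

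The reference groups of the 2 experiments differed in these genes. In a fit over all 18 libraries 6 members were called lower in siControl than in control, Lars, Iars, Gars, Yars, Eprs and Nars, and 0 higher, against 10.1% and 14.1% of tested genes. Their log2 differences ran from -2.21 (SE 0.19) for Lars to -1.04 (SE 0.05) for Nars, and the largest adjusted p was 2.77e-13, for Iars. At the adjusted p alone 8 were lower, against 20.4% of tested genes, with Wars (-0.80, SE 0.09) and Aars (-0.77, SE 0.13) added, and Cars (-0.38, adjusted p 0.341) and Sars (0.04, adjusted p 0.783) did not. Of 8 interferon genes 6 were called higher in siControl, led by Gbp2 (4.03), Irf7 (3.77) and Ifit1 (3.61, or 2.89 without siControl 1 and 4.37 without control 2). Irf7 overlaps Phrf1 on the opposite strand. Transfection and experiment cannot be told apart here.

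Over all 6 groups, on 1 scale, CK666 had the highest mean for each of the 10 genes. For Aars it was 12381 ± 180, within the range of siArp4+CK666 (11994 ± 1995), whereas for the other 9 the CK666 libraries were all above those of the next group. The second highest mean was control in 6 genes and siArp4+CK666 in Aars, Sars, Wars and Yars. Sars had close levels in 4 groups, with 3946 ± 103 in control, 4054 ± 286 in siControl, 3425 ± 57.1 in siArp4 and 3272 ± 174 in CytoD. For Wars siArp4+CK666 (2846 ± 111), siArp4 (2782 ± 95.4) and control (2730 ± 66.7) overlapped in turn. For Nars every neighbouring pair of groups was separate, from 13300 ± 533 in CK666 through control, siArp4+CK666, siArp4 and CytoD to 4011 ± 99.5 in siControl.

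The counts of the 10 genes were correlated across libraries. Pearson's r of their log2 normalized counts over the 18 libraries lay between 0.54 and 0.97 for the 45 pairs, with a median of 0.83. The libraries fall into 6 treated groups and 2 experiments, which all genes share, so these values only describe likeness. Cars had the loosest tie to the mean of the members (0.77) and Nars the closest (0.99). Among other cytosolic synthetases Farsb (0.92), Rars (0.90) and Tars (0.88) were close and Qars (-0.23) was not, and of the ATF4 list Chac1 (0.98), Trib3 (0.95) and Asns (0.95) were closest. These genes were named after their values were seen. Of 10248 genes outside the lists with a mean of at least 100 counts, the 5 most like the members were Mthfd2 (0.97), an enzyme of mitochondrial folate metabolism, Tmem206 (0.96), Tmem201 (0.96), Pmaip1 (0.96), which encodes the BH3-only protein Noxa, and Polr3e (0.95), a subunit of RNA polymerase III.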

How the data were processed

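RNA-seq of 18 unstranded libraries, 3 in each of 6 groups named by the labels, was read from 1 table of 54347 genes. The authors quantified reads with Salmon (1.2.1 per the labels) on GRCm38 and deposited expected counts per gene, not scaled between samples. How transcripts were summed to genes is not given in the sources used here. Of the nonzero values 0% were whole numbers, with no tolerance, and rounding them moved a total by at most 277. Symbols and coordinates came from GENCODE vM21 on the same build (54094 identifiers matched, 253 did not), and promoters from RefSeq GRCm38.p6.

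DESeq2 1.42.0 (R 4.3.3), the tool of the study, was fitted to the 9 libraries of each experiment with group as the only term, and to all 18 libraries for the interaction and for siControl against control. Wald tests were two-sided, Benjamini-Hochberg adjustment ran over all genes, independent filtering was set at 0.01, and fold changes were not shrunken. Calls needed a log2 fold change over 1 in size and an adjusted p below 0.01. Normalized counts were scaled by the size factors of their own experiment unless stated, and counts per kb by those over all 18 libraries. Alternatives were edgeR 4.0.16 quasi-likelihood, TMM size factors, a low count filter, no fold minimum, a test against a fold of 2, a replicate block, a fit over 18 libraries and each library left out. The fits were tested on simulated counts. Intervals are 95% Wald intervals. Figures were drawn with matplotlib 3.10.9.

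All 10 members are named in every comparison. Of other lists the text gives counts and up to 3 called genes with the largest change, and exceptions are stated or are complete lists of members that passed. Pattern likeness was Pearson's r with the mean of the members' standardised log2(normalized count + 1). The members and lists were chosen with earlier results of these data known. Results of the mitochondrial synthetase list in the second experiment and of 1 lymphocyte marker are not reported here.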

Additional observations from a re-analysis of the deposited data

Results flagged for a closer look

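The effect of CK666 on 2 of the 10 synthetase genes differed between cells with the Arp4 siRNA and untransfected cells in a test of the difference itself. The difference in log2 effect was -1.17 for Wars (95% CI -1.40 to -0.93, adjusted p 4.92e-20 by DESeq2) and -0.71 for Gars (95% CI -0.98 to -0.44, adjusted p 1.50e-05 by DESeq2). Both genes were higher in siArp4 than in siControl, by 0.80 and 0.53 on the log2 scale, and lower in siControl than in control, by log2 differences of -0.80 and -1.44. The part of the knockdown, the transfection and the experiment cannot be told apart, since none of the 6 groups had the mock siRNA with CK666.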

How the results depend on the processing

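With the edgeR test and with the low count filter all 80 member values kept their sign and their call by fold and adjusted p together. At the adjusted p alone edgeR lost 8 of them, Iars for CK666, Aars and Gars for siArp4, Gars and Sars for siArp4+CK666 against siControl, and Eprs, Nars and Yars for siArp4+CK666 against siArp4, and gained 0. TMM size factors lost 0 and gained 2, the low count filter lost 0 and gained 3, the fit over 18 libraries lost 1 and gained 3, and the replicate block lost and gained 0. The count of members called for siArp4 against siControl, 0 as reported, was 1 with TMM size factors, 1 with the replicate block and 1 in the fit over all 18 libraries, which in each case was Lars. Without a fold minimum the counts were 9 for CK666 against control, 9 for CytoD against control, 5 for siArp4 and 9 for siArp4+CK666 against siControl, 4 for siArp4+CK666 against siArp4 and 2 for the interaction. The test against a fold of 2 gave 0 for CK666, 0 for CytoD, 1 for siArp4+CK666 against siControl, 0 for the interaction and 3 for siControl against control. With each library left out the counts ran from 2 to 3 for CK666, 3 to 5 for CytoD, 10 to 10 for CK666 against CytoD, 0 to 2 for siArp4, 5 to 5 for siArp4+CK666 against siControl, 0 to 0 against siArp4, 1 to 1 for the interaction and 6 to 7 for siControl against control. Dropping the fold minimum together with another setting, and leaving out libraries for the other lists, were alternatives chosen after seeing the data.

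Values near 0 changed sign. Sars in siControl against control was -0.0744 with the replicate block. Leaving out single libraries moved Cars in siArp4+CK666 against siControl between -0.25 and 0.68 (negative without siControl 1, -0.25, siControl 3, -0.13, or siArp4+CK666 3, -0.08), the Aars interaction between -0.18 and 0.06 (positive without siArp4 3, 0.03, or siArp4+CK666 3, 0.0565) and the Eprs interaction between -0.04 and 0.16 (negative without CK666 1, -0.03, or siArp4+CK666 1, -0.0415). The cause was not tested. Deviations of same-numbered libraries from their group means correlated above 0.1 in 2 of 9 pairs in the first experiment and 3 of 9 in the second. In the second they ran from -0.61 to 0.79, and those of other pairs from -0.82 to 0.72. Deviations from a mean of 3 libraries constrain each other, so these values cannot decide whether same-numbered libraries were paired. The replicate block called Lars for siArp4 against siControl, as given above. It put Eprs in siControl against control at -0.98, under the fold minimum, and changed no other call. With 3 libraries a group, the wide siControl spread limits what could be detected for Cars and Iars.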
